A study of Mus musculus with 8 samples.

Results

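Scx, Mkx, Egr1, Egr2, Six2, Eya1 and Eya2 encode transcription factors and coactivators known as regulators of tendon or limb mesenchyme. Their rows were taken by gene symbol from a table of 24982 genes, and all 7 were found. Their RNA was measured in cultured mouse tail tendon fibroblasts in which scleraxis, the product of Scx, had been deleted, and in cells that kept it. The ScxKO group had 4 libraries, numbered 2, 3, 4 and 5, with the genotype Scx-, and the ScxWT group had 4 libraries, numbered 2, 3, 5 and 6, with the genotype Scx+. The strain was C57Bl/6, and the cells of both groups had received 4-hydroxytamoxifen (4HT), the ligand that switches on tamoxifen-dependent Cre enzymes, so no library shows the cells without it. The driver of the deletion, the part of Scx removed, the animals behind the cultures and their age are not given in the labels. The question posed is how loss of scleraxis alters the mRNAs of tenocytes.

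Scleraxis is a basic helix-loop-helix (bHLH) protein that pairs with E-proteins, binds E-box sequences and marks tendon progenitors and tendon cells. Mohawk, the product of Mkx, is a homeobox protein of the Iroquois-related TALE class that is needed for normal collagen fibrils in tendon. Egr1 and Egr2 are zinc finger proteins whose genes respond quickly to serum, growth factors and mechanical load, and both have been placed upstream of tendon collagen genes. Six2 is a homeobox protein, and Eya1 and Eya2 are phosphatases and coactivators that homeobox proteins of the sine oculis family, to which Six2 belongs, bring to DNA. Genes of both families are expressed in developing limb tendons.

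The libraries held between 17343228 and 25180790 counts assigned to genes. In a principal component analysis of log2 CPM (counts scaled to each library's depth), the leading component, with 53.3% of the variance, separated the groups, and the next, with 12.9%, set ScxWT library 5 apart from the other ScxWT libraries. Of 8 tendon fibroblast markers, with Mkx among them, 7 could be tested. By the test and threshold given below, 0 rose, 6 fell and Mkx was not called, while 14.5% of all genes tested fell. The summed level of the markers was 5786 to 6462 CPM in ScxKO libraries and 7720 to 9839 CPM in ScxWT libraries. The type I collagen genes made up most of that sum, while Kera, the gene of the tendon proteoglycan keratocan, had 0 counts in all 8 libraries. Of 9 markers of skeletal muscle and its progenitors, in which Eya genes also act, Myod1, Myf5 and Pax7 had 0 counts in every library. Pax3, at 3.10 to 4.42 CPM, Des, at 1.01 to 1.45 CPM, and Acta1, at 25.3 to 39.5 CPM, were present in every library. Myog, Ckm and Myh3 had at most 3 counts in a library. In bulk RNA, fewer cells of a type and less RNA per cell cannot be told apart.

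Of the 7 factors, Scx alone passed the test in ScxKO against ScxWT cells. A gene is called here when its adjusted p is under 0.05 in the quasi-likelihood test of edgeR, adjusted by the Benjamini-Hochberg method over all 13125 genes tested. All 7 factors were among those genes. Called genes made up 28.5% of all genes tested, with 14.0% higher and 14.5% lower in ScxKO cells. Among the 6 factors other than the deleted gene, 0 were called by edgeR, 0 by DESeq2 and 0 by limma-voom, and 2, Egr2 and Six2, had an unadjusted p under 0.05. An unadjusted p under 0.05 was seen in 39.0% of all genes tested. The ScxKO and ScxWT libraries overlapped for each of these 6 factors, whereas the groups did not overlap for 29.1% of all genes tested. The median log2 change (ScxKO over ScxWT) of the 6 was -0.11, with 4 below 0 and 2 above, and that of all genes tested was -0.01. A log2 change with a smaller absolute value than that of Six2, the largest of the 6, was found in 81.0% of all genes tested. Without ScxWT library 5, Scx had a log2 change of -5.93, and the other 6 lay between -0.27, for Eya2, and 0.06, for Eya1, with 0 called.

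**Figure D1:**
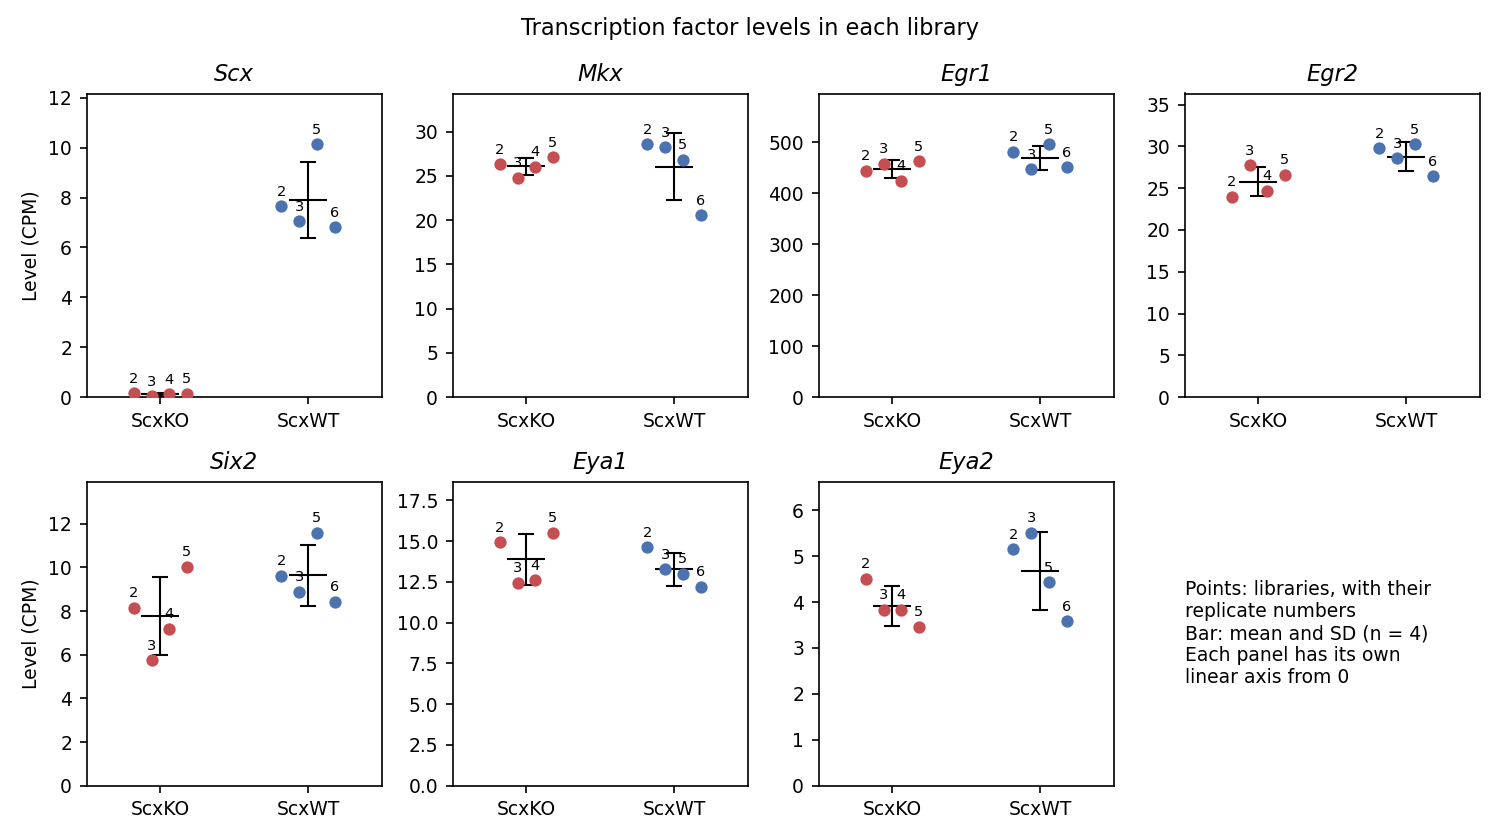
Level of each of the 7 factors in every library, in CPM scaled by TMM factors on a linear axis that differs between panels, with ScxKO libraries on the left and ScxWT libraries on the right of each panel. Points are libraries and bars are the mean and SD of 4 libraries, and Scx, at 0.0468 to 0.152 CPM in ScxKO and 6.82 to 10.1 CPM in ScxWT libraries, is the panel without overlap.

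Scx was nearly absent from the deleted cells. ScxKO libraries 2, 3, 4 and 5 had 0.152, 0.0468, 0.116 and 0.135 CPM of Scx, and ScxWT libraries 2, 3, 5 and 6 had 7.66, 7.06, 10.1 and 6.82 CPM. These levels rest on 3, 1, 2 and 3 counts in the ScxKO libraries and on 177, 132, 252 and 156 counts in the ScxWT libraries. Every ScxKO library lay below every ScxWT library, and ScxWT library 5 was the highest. Scx fell by 6.08 ± 0.27 (SE) on the log2 scale, with a 95% interval of -6.66 to -5.51 and, by edgeR, an adjusted p of 1.75e-09. Summed counts scaled for depth put the ScxKO level at 1.39% of the ScxWT level, and the exact 95% bounds of this share, for counting error alone, were 0.635% and 2.66%. Scx (ENSMUSG00000034161.8) lies on the plus strand of chromosome 15 of GRCm38 from 76457452 to 76459458, within Bop1, a ribosome biogenesis gene on the opposite strand with which it shares 0 exonic bases. Bop1 had 83.0 ± 3.23 CPM in ScxKO cells and 81.4 ± 5.87 CPM in ScxWT cells (SD, n = 4 each), and its log2 change of 0.03 ± 0.05 (SE) did not pass the test.

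Of 15 genes for bHLH proteins that pair with scleraxis or compete for its partners, 10 were tested, of which 0 rose and 1 fell by edgeR, DESeq2 and limma-voom alike, with a median log2 change of -0.04. The share called, 1 of 10, stands beside 28.5% of all genes tested, and 2 fell in 6 of the 17 other settings tried. At an unadjusted p under 0.05 the counts were 0 higher and 2 lower, the second being Tcf3. The gene that fell was Id4, which encodes an inhibitor that holds E-proteins away from DNA. Id4 had 9.82, 9.68, 8.999 and 10.03 CPM in ScxKO libraries and 14.9, 13.6, 15.5 and 14.2 CPM in ScxWT libraries, with no overlap, and a log2 change of -0.59 ± 0.07 (SE). Its relative Id3 had the highest level for its length of the list, at 107 CPM per kb in ScxKO cells and 105 CPM per kb in ScxWT cells. Among the E-proteins themselves, Tcf3 had a log2 change of -0.21 and an adjusted p of 0.0730 by edgeR, that of Tcf4 was -0.09 and that of Tcf12 was 0.02. Without ScxWT library 5 the log2 change of Tcf3 was -0.09. Without ScxWT library 3 the list had 2 falls, and without ScxWT library 5 it had 1 rise. The bHLH genes Tcf15, Tcf21, Hand2 and Bhlha9 had 0 counts in all libraries, and Hand1 had 1.

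Mkx stood at the same mean level with and without Scx. It had 26.3, 24.8, 26.0 and 27.1 CPM in ScxKO libraries 2, 3, 4 and 5, against 28.6, 28.3, 26.8 and 20.5 CPM in ScxWT libraries 2, 3, 5 and 6. ScxWT library 6 was the lowest of all 8, and the ScxKO libraries lay inside the ScxWT range. The means were 26.1 ± 0.951 CPM in ScxKO cells and 26.0 ± 3.75 CPM in ScxWT cells (SD, n = 4 each). The log2 change was 0.00 ± 0.09 (SE), with a 95% interval that runs from 88.1% to 114% of the ScxWT level and an adjusted p of 0.989 by edgeR. Without ScxWT library 6 the log2 change was -0.09, with an adjusted p of 0.282 by edgeR. Libraries of the ScxKO group varied by a coefficient of 3.65% and those of the ScxWT group by 14.4%. Mkx (ENSMUSG00000061013.6) lies on the minus strand of chromosome 18 of GRCm38 from 6934518 to 7004780, and 201 of its 4095 exonic bases are shared with the annotated gene AC148004.2 on the same strand. Of the 50-base stretches of Mkx transcripts, 5.21% also occur in transcripts of other genes. Those other genes number 651, of which 480 are among the genes counted.

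The list of Iroquois and TALE homeobox relatives of Mkx also held Gtf2ird1, which is not a homeobox gene. Of the 18 genes of the list 16 were tested, of which 3 rose and 4 fell, with a median log2 change of -0.02. Gtf2ird1 had a log2 change of 0.09 and was not called. Among those that rose were Tgif1, a repressor that limits SMAD-driven transcription, and Meis2, a partner of Hox proteins. Tgif1 had 71.4, 76.6, 78.3 and 82.1 CPM in ScxKO libraries, against 52.7, 49.6, 53.5 and 49.3 CPM in ScxWT libraries, without overlap. Its log2 change was 0.59 ± 0.05 (SE). Meis2 had a log2 change of 0.16 ± 0.05 (SE) and was not called without ScxKO library 5. The 4 that fell were Irx3 at a log2 change of -0.58, Irx5 at -0.36, Meis1 at -0.25 and Pbx3 at -0.20. The number that fell was 2 without ScxKO library 2, ScxKO library 4 or ScxWT library 6, and 1 without ScxKO library 3 or ScxKO library 5. Irx3 had 7.01, 6.15, 11.6 and 6.56 CPM in ScxWT libraries 2, 3, 5 and 6, and without ScxWT library 5 its log2 change was -0.31. Meis1 was called whichever library was left out, while Irx3 lost its call in 3, Irx5 in 6 and Pbx3 in 6 of the 8 fits without 1 library.

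Transforming growth factor beta (TGF-beta) signalling through SMAD proteins is known to act upstream of Scx and Mkx. Of the 13 genes of this arm all were tested, of which 3 rose and 2 fell, with a median log2 change of -0.06. The ligand gene Tgfb1 rose, with 35.0, 36.0, 40.0 and 40.3 CPM in ScxKO libraries, against 27.1, 21.2, 28.6 and 26.0 CPM in ScxWT libraries. The ligand gene Tgfb2 fell, with 10.3, 10.9, 11.0 and 9.54 CPM in ScxKO libraries, against 19.9, 18.5, 19.1 and 19.2 CPM in ScxWT libraries. Neither ligand gene had overlapping groups, and their log2 changes of 0.55 ± 0.08 and -0.89 ± 0.07 (SE) had opposite signs. Smad2, a signal transducer of the pathway, rose by a log2 change of 0.16. Ski, a corepressor of SMAD proteins, had a log2 change of -0.16, and of -0.11 without ScxWT library 5. Smad2 was not called without ScxKO library 3, ScxKO library 5 or ScxWT library 2, and Ski was not called without ScxKO library 3, ScxKO library 4 or ScxWT library 6. The number that fell was 1 without ScxKO library 3 or ScxKO library 4.

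Egr1 was the factor with the highest level for its length, and its groups overlapped. It had 444, 457, 425 and 463 CPM in ScxKO libraries 2, 3, 4 and 5, against 481, 447, 496 and 450.3 CPM in ScxWT libraries 2, 3, 5 and 6. ScxKO library 4 was the lowest and ScxWT library 5 the highest of the 8. The means were 447 ± 17.1 CPM in ScxKO cells and 469 ± 23.9 CPM in ScxWT cells (SD, n = 4 each). The log2 change was -0.07 ± 0.04 (SE), and edgeR gave an adjusted p of 0.287. Its 95% interval of -0.16 to 0.03 spans 89.3% to 102% of the ScxWT level, the narrowest of the 6 factors other than Scx. Its log2 change was -0.04 without ScxKO library 4 and -0.03 without ScxWT library 5. Egr1 (ENSMUSG00000038418.7) lies on the plus strand of chromosome 18 of GRCm38 from 34859823 to 34864984.

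Egr2 lay slightly lower in ScxKO cells but missed the threshold. It had 23.99, 27.7, 24.7 and 26.6 CPM in ScxKO libraries 2, 3, 4 and 5, against 29.7, 28.6, 30.3 and 26.4 CPM in ScxWT libraries 2, 3, 5 and 6. The groups overlapped through ScxWT library 6, and the ScxKO library was the lower one in 14 of 16 pairs. The means were 25.7 ± 1.72 CPM in ScxKO cells and 28.7 ± 1.72 CPM in ScxWT cells (SD, n = 4 each). The log2 change was -0.16 ± 0.06 (SE), with a 95% interval that runs from 81.5% to 98.6% of the ScxWT level. Its unadjusted p was 0.0277 and its adjusted p 0.0814 by edgeR. Without ScxWT library 6 the log2 change was -0.19, with an adjusted p of 0.0454 by edgeR. Egr2 is also a regulator of Schwann cells, and of 8 Schwann and glial markers, all tested by edgeR, 0 rose and 1, S100b, fell (0 and 3 at an unadjusted p under 0.05), with a summed level of 408 to 432 CPM in ScxKO libraries and 424 to 444 CPM in ScxWT libraries. No marker of that list was at 0 counts, and its part in the Egr2 level was not tested.

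Egr2 (ENSMUSG00000037868.15) lies on the plus strand of chromosome 10 of GRCm38 from 67535475 to 67542188. RefSeq promoter windows were at hand for 2 of the 7 factors, Egr2 and Six2. The stretch below, 180 bases upstream of the Egr2 start site at 67537869, is shown because the serum response factor (SRF), which relays serum and mechanical signals, binds CArG boxes, and scleraxis binds E-boxes. It spans chr10:67537689-67537868 on the plus strand of GRCm38.p6 and overlaps 0 annotated GENCODE exons. Capitals mark an E-box, CATGTG, that starts 115 bases before the start site, and a CArG box that starts 72 bases before it.
Egr2: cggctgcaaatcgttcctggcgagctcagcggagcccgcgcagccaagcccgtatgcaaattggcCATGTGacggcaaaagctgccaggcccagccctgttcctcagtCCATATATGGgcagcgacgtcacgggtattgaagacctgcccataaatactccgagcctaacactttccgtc
Over 32851 RefSeq promoter windows of 300 bases searched on both strands, the E-box pattern CANNTG was found in 72.3% and the CArG box in 1.63%. The Egr site GCGTGGGCG was found in 0.612% of windows and in no window of Egr2 or Six2. Another of the 5 Egr2 windows held a second CArG box from 67537494 to 67537503, and another held the E-box CACGTG from 67535472 to 67535477. These matches describe the letters of the windows.

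Among the relatives and corepressors of the Egr proteins, 5 of 7 genes were tested, Egr1 and Egr2 included, of which 2 rose and 0 fell. Both that rose encode Nab proteins, which bind Egr factors and repress their activity. Nab1 had 89.2, 93.5, 92.3 and 92.2 CPM in ScxKO libraries, against 81.6, 80.9, 75.4 and 81.0 CPM in ScxWT libraries, with a log2 change of 0.20 ± 0.04 (SE) and an adjusted p of 0.00185 by edgeR. Nab2 had 189, 179, 182 and 192 CPM in ScxKO libraries, against 152, 146, 171 and 152 CPM in ScxWT libraries, with a log2 change of 0.26 ± 0.05 (SE) and an adjusted p of 0.000968 by edgeR. Neither gene had overlapping groups. Of the 50-base stretches of Nab2, 34.9% also occur in transcripts of other genes, among them the neighbouring Nemp1, which fell by a log2 change of -0.30 ± 0.08 (SE) but was not called without ScxKO library 5, so the Nab2 counts are uncertain. Egr3, a further family member, had a log2 change of -0.09 ± 0.09 (SE) and an adjusted p of 0.522 by edgeR, and its log2 change was 0.01 without ScxWT library 2. Egr4 had 14 counts over the ScxKO libraries and 9 over the ScxWT libraries, too few to test, and Wt1, a zinc finger relative, had 0. Of the tested genes with a log2 change below 0, 1, Egr2, had an unadjusted p under 0.05. DESeq2 and limma-voom also gave 0 falls, and without ScxWT library 6 there was 1, that of Egr2.

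The kinase ERK and the factor SRF act upstream of Egr1 and Egr2 in many cells. Of the 20 genes of this arm all were tested, of which 9 rose and 2 fell, with a median log2 change of 0.10. The 5 rises with the smallest p were those of Dusp4 and Dusp6, phosphatases that switch off ERK family kinases, Spry4, an inhibitor of receptor signalling, and Etv4 and Etv5, ETS factors that growth factor signals induce. Dusp4 had 23.4, 25.5, 28.0 and 25.1 CPM in ScxKO libraries, against 10.7, 10.1, 12.3 and 12.8 CPM in ScxWT libraries, with a log2 change of 1.15 ± 0.08 (SE). Dusp6 had a log2 change of 0.45, Etv4 of 0.46, Spry4 of 0.38 and Etv5 of 0.29. The 2 that fell were Spry1, at a log2 change of -0.42, and Mkl1, an SRF coactivator, at -0.21. Srf itself had a log2 change of -0.03 and an adjusted p of 0.806 by edgeR, and its log2 change was 0.06 without ScxWT library 5. Mapk3, an ERK kinase gene, had the highest level for its length, at 89.5 CPM per kb in ScxKO cells and 83.9 CPM per kb in ScxWT cells. The number that fell was 1 without ScxKO library 5, where Mkl1 was not called.

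Other immediate early genes moved in both directions. Of 20 that are known to be induced with Egr1 all were tested, of which 4 rose and 6 fell, with a median log2 change of 0.01. Fos, a subunit of the AP-1 factor, fell, with 33.1, 33.7, 32.7 and 31.8 CPM in ScxKO libraries, against 43.0, 42.8, 47.8 and 38.9 CPM in ScxWT libraries. Fosl1, which encodes another AP-1 subunit, rose by a log2 change of 0.50 ± 0.05 (SE). The orphan nuclear receptor gene Nr4a3 rose by 0.86 ± 0.14 (SE), and Klf2, which encodes a zinc finger factor, fell by 0.81 on the log2 scale. Maff and Csrnp1 also rose, at log2 changes of 0.31 and 0.26, and Klf4, Klf10 and Jun fell, at -0.34, -0.32 and -0.16. Jun was not called without ScxKO library 2, ScxKO library 5 or ScxWT library 6.

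**Figure D2:**
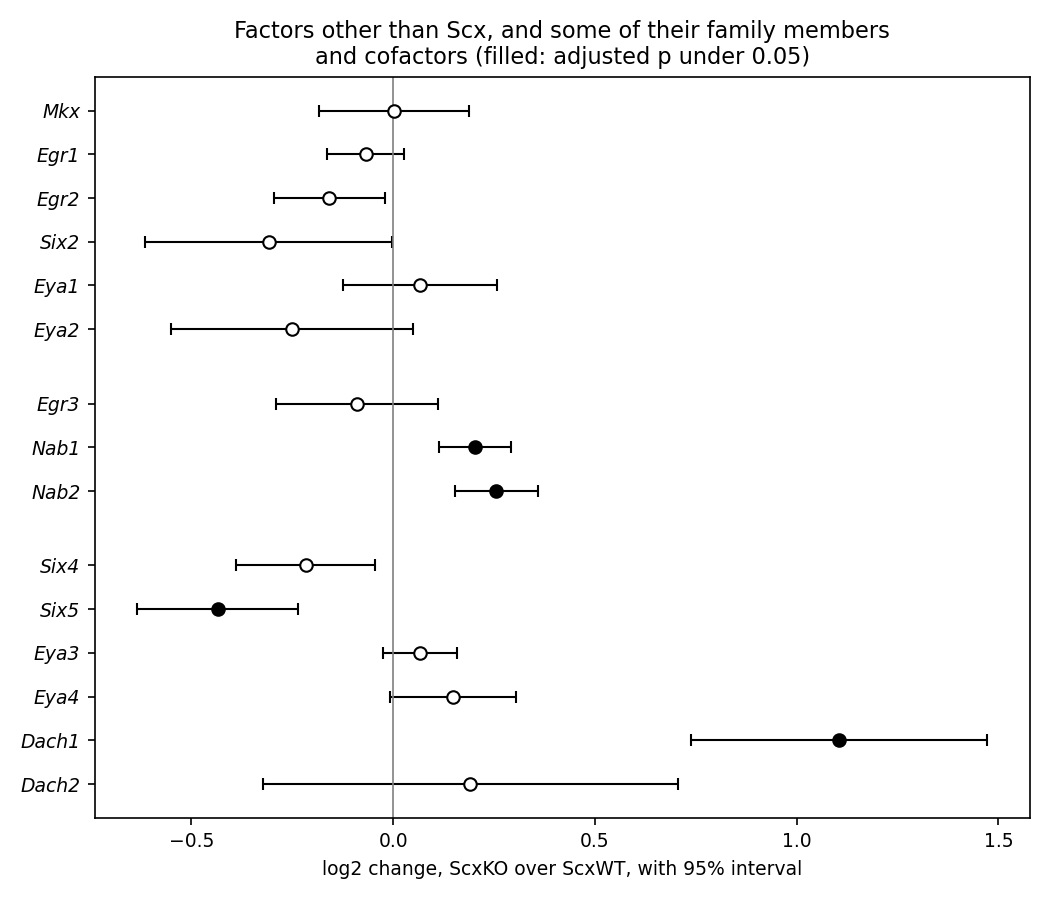
Log2 change, ScxKO over ScxWT, of the factors other than Scx and of some of their relatives and cofactors, with bars for the 95% interval from the edgeR fit on 4 libraries in each group. Filled points passed the adjusted p threshold of 0.05, as Nab1, Nab2, Six5 and Dach1 did, and open points did not, as for all 6 factors.

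Six2 was lower on average in ScxKO cells, with a spread that left it short of the threshold. It had 8.15, 5.75, 7.20 and 10.03 CPM in ScxKO libraries 2, 3, 4 and 5, against 9.61, 8.88, 11.6 and 8.43 CPM in ScxWT libraries 2, 3, 5 and 6. ScxKO library 3 was the lowest and ScxWT library 5 the highest, and ScxKO library 5 lay among the ScxWT libraries. The means were 7.78 ± 1.79 CPM in ScxKO cells and 9.63 ± 1.39 CPM in ScxWT cells (SD, n = 4 each). The log2 change was -0.31 ± 0.14 (SE), with a 95% interval that runs from 65.3% to 99.9% of the ScxWT level. Its unadjusted p was 0.0490 and its adjusted p 0.126 by edgeR. Single libraries set how far Six2 differed, since the log2 change was -0.46 without ScxKO library 5, with an adjusted p of 0.0254, and -0.18 without ScxKO library 3, with an adjusted p of 0.352, both by edgeR. Without ScxWT library 5, which stood apart on the second component, it was -0.20, with an adjusted p of 0.260 by edgeR.

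Six2 (ENSMUSG00000024134.11) lies on the minus strand of chromosome 17 of GRCm38 from 85684277 to 85688274. Of the 50-base stretches of Six2 transcripts, 1.03% also occur in transcripts of 464 other genes. The Six2 promoter is printed for comparison with that of Egr2, since it holds none of the motifs searched. The stretch is the 180 bases upstream of its start, chr17:85688275-85688454 on the minus strand of GRCm38.p6, where it overlaps 0 annotated GENCODE exons.
Six2: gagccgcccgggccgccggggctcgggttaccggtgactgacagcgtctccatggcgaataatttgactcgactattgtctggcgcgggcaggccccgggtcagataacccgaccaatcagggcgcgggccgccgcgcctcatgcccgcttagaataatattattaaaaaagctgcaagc
The sine oculis site TCAGGTTTC was found in 0.429% of the 32851 windows on either strand. That the E-box, the CArG box, the Egr site and the sine oculis site have no match says only that these letters are not in the window.

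Six5, another member of the family, was lower in every ScxKO library. It fell by 0.43 ± 0.09 (SE) on the log2 scale, with an adjusted p of 0.00259 by edgeR. Six5 had 9.31, 8.93, 8.77 and 8.23 CPM in ScxKO libraries, against 12.9, 10.4, 13.3 and 10.8 CPM in ScxWT libraries, without overlap. Six4 also lay lower in every ScxKO library, at 8.59 to 9.76 CPM, than in any ScxWT library, at 10.1 to 11.6 CPM, but its adjusted p was 0.0560 by edgeR. Six3 had 0 counts over the ScxKO libraries and 2 over the ScxWT libraries, and Six6 had 0.

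Eya1 lay slightly higher on average in ScxKO cells, and its groups overlapped. It had 14.9, 12.4, 12.6 and 15.5 CPM in ScxKO libraries 2, 3, 4 and 5, against 14.6, 13.3, 13.0 and 12.2 CPM in ScxWT libraries 2, 3, 5 and 6. ScxKO libraries 2 and 5 were the highest of the 8. The means were 13.9 ± 1.58 CPM in ScxKO cells and 13.3 ± 1.02 CPM in ScxWT cells (SD, n = 4 each). The log2 change was 0.07 ± 0.09 (SE), with a 95% interval of -0.12 to 0.26 and an adjusted p of 0.621 by edgeR. With 1 library left out the log2 change was 0.01 (without ScxKO library 5) to 0.12 (without ScxWT library 2), so its size rests on single libraries. Eya1 (ENSMUSG00000025932.14) lies on the minus strand of chromosome 1 of GRCm38 from 14168954 to 14310235.

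Eya2 was the factor with the fewest counts after Scx, between 66 and 119 in each library. It had 4.51, 3.84, 3.83 and 3.46 CPM in ScxKO libraries 2, 3, 4 and 5, against 5.15, 5.51, 4.43 and 3.58 CPM in ScxWT libraries 2, 3, 5 and 6. ScxKO library 5 was the lowest of all, and ScxWT libraries 2 and 3 lay above every ScxKO library. The means were 3.91 ± 0.434 CPM in ScxKO cells and 4.67 ± 0.853 CPM in ScxWT cells (SD, n = 4 each). The log2 change was -0.25 ± 0.14 (SE), with a 95% interval that runs from 68.3% to 103% of the ScxWT level and an adjusted p of 0.204 by edgeR. Without ScxWT library 6 the adjusted p was 0.0570 by edgeR, the smallest among the fits that left out a library. Eya2 (ENSMUSG00000017897.18) lies on the plus strand of chromosome 2 of GRCm38 from 165595032 to 165771727.

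Of the other partners of these homeobox proteins, the corepressor gene Dach1 rose. Dach1 had 3.39, 2.48, 3.31 and 2.47 CPM in ScxKO libraries, against 1.21, 1.23, 1.29 and 1.62 CPM in ScxWT libraries, with a log2 change of 1.11 ± 0.17 (SE) and an adjusted p of 0.000180 by edgeR. Its groups did not overlap. Dach2 had a log2 change of 0.19, Eya3 of 0.07 and Eya4 of 0.15, and none of these passed the test. Without ScxWT library 6 the log2 change of Eya4 was 0.10, and without ScxWT library 5 that of Dach2 was 0.00. Over the whole list of sine oculis, Eya and Dach genes, 10 of 12 were tested, of which 1 rose and 2 fell, with a median log2 change of -0.07. Without ScxWT library 2 the list had 2 rises.

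**Figure D3:**
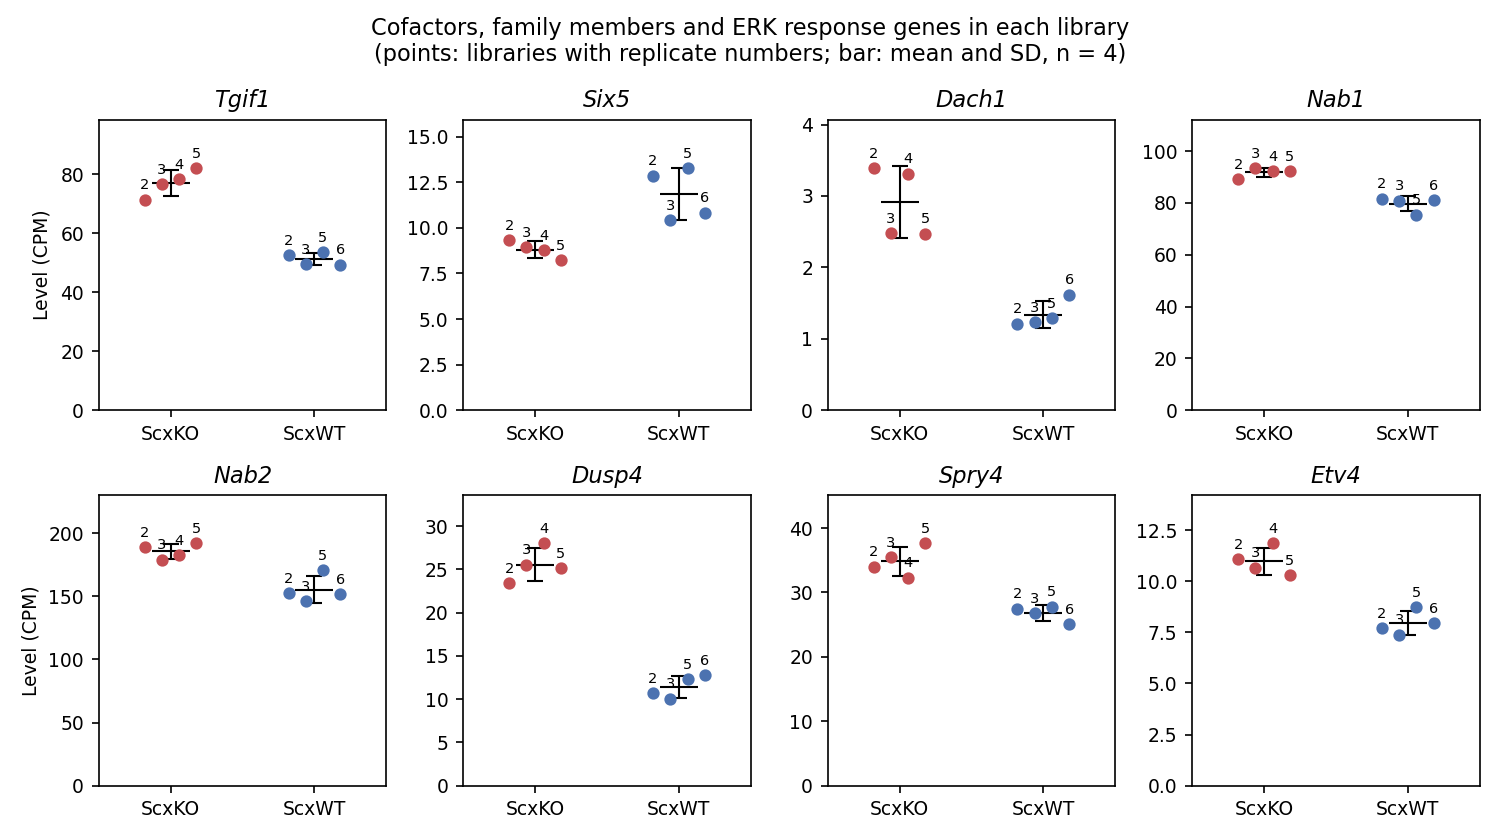
Level in CPM, on a linear axis that differs between panels, of Tgif1, Six5, Dach1, Nab1, Nab2, Dusp4, Spry4 and Etv4 in every library, with ScxKO libraries on the left and ScxWT libraries on the right of each panel. Points are libraries, bars are the mean and SD of 4 libraries, and no panel has overlapping groups, as for Dusp4 at 23.4 to 28.0 CPM in ScxKO and 10.1 to 12.8 CPM in ScxWT libraries.

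Other transcription factors of limb mesenchyme changed in both directions. Of 26 such genes 19 were tested, of which 4 rose and 6 fell, with a median log2 change of -0.12. Foxc2, a forkhead factor gene, rose, with 19.3, 17.4, 22.1 and 18.8 CPM in ScxKO libraries, against 11.8, 9.42, 12.4 and 12.1 CPM in ScxWT libraries. Osr2, which encodes a zinc finger factor of joint and limb mesenchyme, fell, with 5.47, 4.26, 4.88 and 5.80 CPM in ScxKO libraries, against 9.31, 9.04, 10.4 and 8.91 CPM in ScxWT libraries. Their log2 changes were 0.75 ± 0.09 for Foxc2 and -0.88 ± 0.11 for Osr2 (SE). Foxf1, Foxf2 and Tbx3 also rose, at log2 changes of 0.36, 0.28 and 0.34. Gli3, the hedgehog pathway factor, fell at -0.35, Meox2 at -0.39, Osr1 at -0.19 and Tbx4, a hindlimb T-box factor, at -0.31. Prrx1, a marker of early limb mesenchyme, had a log2 change of 0.09 and an adjusted p of 0.178 by edgeR. The number that fell was 3 without ScxKO library 4, where Osr1 and Tbx4 were among those not called. Tbx4 lost its call in 6 of the 8 fits without 1 library, and without ScxWT library 5 its log2 change was -0.20. Tbx3 was not called without ScxKO library 2, ScxKO library 5 or ScxWT library 3. The log2 change of Prrx1 was 0.05 without ScxWT library 5.

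Genes placed downstream of Scx, Mkx or Egr factors in tendon had the lowest median log2 change of the 9 lists. Of 17 such genes 14 were tested, of which 1 rose and 12 fell, with a median log2 change of -0.73. The 5 falls with the smallest p were those of Col3a1 and Col14a1, which encode a fibril collagen and a fibril-associated collagen, Comp, a matrix protein that binds collagen, Tgfb2 and Tnmd, a membrane protein of mature tendon cells. Tnmd had 3.04, 2.53, 2.44 and 2.52 CPM in ScxKO libraries, against 6.54, 8.13, 7.20 and 5.86 CPM in ScxWT libraries, with a log2 change of -1.39 ± 0.13 (SE). Col3a1 had a log2 change of -1.14, Col14a1 of -1.25 and Comp of -1.57. Col1a1, the type I collagen gene with the highest level for its length in the ScxWT cells, at 412 CPM per kb in ScxKO cells and 597 CPM per kb in ScxWT cells, fell by 0.54 on the log2 scale. The gene that rose was Tnc, the gene of the matrix protein tenascin C, at a log2 change of 0.63. The tested member that was not called, Bgn, encodes biglycan and had a log2 change of -0.03, or 0.02 without ScxWT library 5. In ScxKO cells it had the highest level of the list for its length, 444 CPM per kb.

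Over all 9 lists, 121 tested genes other than the 7 factors held 27 that rose and 34 that fell, with a median log2 change of -0.02. Beside 28.5% of all genes tested, the share called, factors included, was 10% for bHLH genes and 30% for sine oculis, Eya and Dach genes. It was 38.5% of the TGF-beta arm, 40% of the Egr list and 43.8% of the Iroquois and TALE list. For the immediate early, limb mesenchyme, ERK and downstream lists it was 50%, 52.6%, 55% and 92.9%. The lists were chosen with earlier results known, so these shares are not a test. Of other cell types, macrophage and leukocyte markers had a summed level of 23.2 to 26.8 CPM in ScxKO libraries and 20.1 to 22.8 CPM in ScxWT libraries, and 2 of the 4 tested of 7, Cd68 and Csf1r, rose. Cd14, which was not called, made up most of that sum, at 13.4 to 16.1 CPM over all libraries. Ptprc, Adgre1 and Itgam, of the same list, had at most 5 counts in a library. Endothelial markers summed to 49.5 to 54.1 CPM in ScxKO libraries and 68.3 to 86.4 CPM in ScxWT libraries, where Kdr rose and Tek fell among 3 tested of 6. Tek made up most of both sums, at 41.5 to 49.3 CPM in ScxKO libraries and 64.3 to 82.3 CPM in ScxWT libraries. Pecam1 had at most 9 counts in a library. Markers of cartilage and bone summed to 55.0 to 60.5 CPM in ScxKO libraries and 56.4 to 63.0 CPM in ScxWT libraries, with Sox9 higher and Runx2 lower among 3 tested of 7. Runx2, at 34.9 to 43.3 CPM, and Sox9, at 16.7 to 22.4 CPM over all libraries, made up most of both sums. Acan, Sp7, Bglap and Ibsp had at most 7 counts in a library, and Col2a1 had at most 18. Keratinocyte markers summed to 85.1 to 88.7 CPM in ScxKO libraries and 85.7 to 88.5 CPM in ScxWT libraries, with 0 of the 2 tested called by edgeR and 1 higher at an unadjusted p under 0.05. Dsp alone had 82.0 to 85.0 CPM of that sum, and Krt5, Krt14 and Trp63 had at most 13 counts in any library. Muscle markers summed to 31.2 to 40.2 CPM in ScxKO libraries and 38.3 to 43.9 CPM in ScxWT libraries, with Acta1 lower among 3 tested of 9. The part of these cells in the levels of the 7 factors was not tested.

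Divided by exonic length, Egr1 was far above the other factors in both groups. In ScxKO cells the order of mean levels was Egr1 at 99.7 ± 3.81 CPM per kb, Egr2 at 7.58 ± 0.507, Mkx at 6.36 ± 0.232, Six2 at 3.67 ± 0.846, Eya1 at 1.78 ± 0.202, Eya2 at 1.32 ± 0.147 and Scx at 0.0560 ± 0.0230 (SD, n = 4). No neighbours in that order overlapped between libraries. In ScxWT cells the order was Egr1 at 105 ± 5.33 CPM per kb, Egr2 at 8.46 ± 0.506, Mkx at 6.36 ± 0.916, Six2 at 4.54 ± 0.658, Scx at 3.95 ± 0.759, Eya1 at 1.70 ± 0.130 and Eya2 at 1.58 ± 0.288 (SD, n = 4). The libraries of Mkx and Six2, of Six2 and Scx, and of Eya1 and Eya2 overlapped there, so their order is not resolved. Egr1 stood 13.2-fold above Egr2 in ScxKO cells and 12.4-fold above it in ScxWT cells. Among 13024 tested genes with a known length, Egr1 ranked 452 in ScxKO cells and 387 in ScxWT cells, and Scx ranked 12974 in ScxKO cells and 8096 in ScxWT cells. The median level of all these genes was 6.45 CPM per kb in ScxKO cells and 6.50 CPM per kb in ScxWT cells, so in both groups Egr2 lay above that median, Mkx close to it, and Six2, Eya1 and Eya2 below it. The lengths are unions of all annotated exons, 7808 bases for Eya1 against 4366 in its longest transcript, and the level per kb is lower for a gene whose cells use a shorter transcript.

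**Figure D4:**
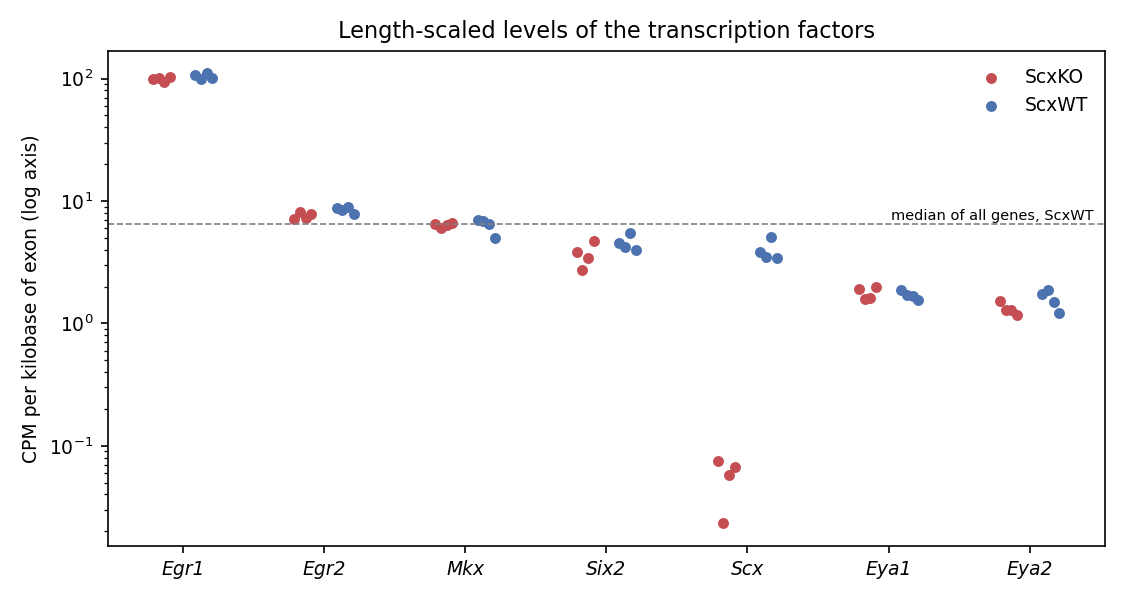
Level of the 7 factors in CPM per kb of exon on a log axis, with ScxKO and ScxWT libraries as separate points for each gene and the median of all genes in ScxWT cells, 6.50 CPM per kb, as a dashed line. Egr1 lies near 100 CPM per kb in both groups at means of 99.7 in ScxKO and 105 in ScxWT cells, and Scx falls below every other factor in ScxKO cells.

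The genes most like each factor were found by the root mean square (RMS) difference between log2 CPM profiles over the 8 libraries, each centred on its own mean, among 11300 genes. For Scx they were Scara5 at 1.21, Clec3b at 1.25 and Eln, the elastin gene, at 1.29. The log2 changes of these genes were -2.97, -3.09 and -2.84, against -6.08 for Scx, so the nearest genes to Scx were not close to it. For Mkx they were Acyp1 at 0.0521, Ssc4d at 0.0550 and Rpp38 at 0.0595. For Egr1 they were Ess2 at 0.0239, Rbm10 at 0.0277 and Ptpn13 at 0.0280, and for Egr2 they were Arsg at 0.0395, Aff2 at 0.0466 and Rnf144b at 0.0475. For Six2 they were Lefty1 at 0.102, Sox12 at 0.115 and Dlx4os at 0.116, among which Sox12 fell by a log2 change of -0.44 ± 0.12 (SE) but was not called without ScxKO library 3 or ScxKO library 4. For Eya1 they were Snhg17 at 0.0640, Zfp983 at 0.0642 and Zfp59 at 0.0673, and for Eya2 they were Gstm7 at 0.0893, Brdt at 0.0951 and Ccdc114 at 0.102. A small difference can also come from 2 genes that both vary little, and no other of the 7 factors was among the genes named.

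The authors' deposited table, which was made from other counts than the deposited count table, holds a test of each factor. Scx had a log2 change of -5.94 in the authors' deposited table, with an adjusted p of 2.14e-42. In the authors' deposited table Mkx was at -0.05 with an adjusted p of 0.758, Egr1 at -0.07 with 0.269, Egr2 at -0.16 with 0.0817, Six2 at -0.28 with 0.163 and Eya1 at 0.08 with 0.631. Eya2 passed the threshold in the authors' deposited table, at a log2 change of -0.44 and an adjusted p of 0.0465, and did not pass it in the edgeR fit of the counts, at -0.25 and 0.204.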

How the data were processed

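RNA from 8 libraries of cultured mouse tail tendon fibroblasts was purified with a miRNeasy Micro kit and DNase I and prepared by Illumina protocols, per the labels' protocols. The tools STAR, DESeq2 and FastQC and the build mm10 are named, per the submitters' processing notes. What each did, in which version, and how reads were counted, with which annotation and whether by strand, is not given in the sources used here. Overlapping genes and those with shared sequence may thus be miscounted. Every test used the raw counts per gene symbol that the authors deposited, as whole numbers. Reads in no feature or ambiguous between features, 7.99% to 9.18% of each library, were dropped. The authors' deposited comparison table holds a mean signal of normalized counts, a log2 fold change with its standard error, a score (the test statistic), and raw and adjusted p-values, as the file headers name them. That fold change was read as ScxKO over ScxWT because its sign was the same as in the counts for 191 of 191 genes changed by over 1 on the log2 scale in both. Another 2 of its columns were left aside.

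Gene symbols were looked up in GENCODE M21 on GRCm38, with 24490 of 24982 (98.0%) found. The tests ran under R 4.3.3 in edgeR 4.0.16: filterByExpr with a minimum count of 10 and a total of 15, TMM factors, and a quasi-likelihood fit with group as its only term and a Benjamini-Hochberg threshold of 0.05. For standard errors, the log2 change was divided by the root of its F statistic. The common coefficient of biological variation came to 5.50%, and the fit was tested on simulated counts. CPM uses TMM factors, and CPM per kb divides by the union of exons. Similarity used log2 CPM with a prior count of 2 for genes averaging 2 CPM or more. Bounds for the summed Scx counts are exact (Clopper-Pearson) at 95%. Other settings were scaling by RLE or upper quartile, no filter, at least 5 CPM in 4 libraries, DESeq2 1.42.0, limma-voom (limma 3.58.1), the replicate number as a block, a correction for GC content and length, and each library left out.

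The factors, gene lists and tests were chosen with earlier results of these data known. From each list the text names the called genes, at most the 5 with the smallest p in each direction, and the gene with the highest level per kb over both groups, besides all Egr, sine oculis and Eya relatives and the 3 genes most like each factor. A few genes that this rule names are not reported here and stay in every count. E-protein genes, Gtf2ird1, Srf, Prrx1, Bgn and the other cell type markers are named beyond that rule, after their values were seen. Pairs of libraries within a group all differed by more than sampling noise, and each was 1 replicate. Whether separate cultures or animals lie behind the libraries is not stated in the labels, so the p-values reflect only the spread among libraries, part of which may be technical. Promoters came from RefSeq windows (GRCm38.p6).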

Additional observations from a re-analysis of the deposited data

How the results depend on the processing

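Under the 17 alternatives, Scx passed the test in 17 of 17, and its log2 change was -6.25 to -5.82 with 1 library left out. Egr1 stayed below 0 and Eya1 above 0 in 17 of 17, and neither passed in any, but with 1 library left out Egr1 was -0.09 to -0.03 and Eya1 0.01 to 0.12. Eya2 stayed below 0 in the 16 alternatives that could test it (the filter of 5 CPM in 4 libraries leaves it out) and passed in none. Mkx passed in none and was below 0 in 7 of 17, between -0.10 and 0.05. Egr2 passed with upper-quartile scaling, at -0.18, and with the GC content and length correction, also at -0.18. With 1 library left out it was -0.19 to -0.12, and Six2 -0.46 to -0.18. The cause of these shifts was not tested. The count of called genes was 2917 to 4906, within 1.5 times of 3744.

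Whether the replicate numbers pair the libraries is not given in the labels. The correlation of deviations from the group means was -0.06, 0.16 and 0.06 for numbers 2, 3 and 5. Number 3 alone exceeded the limit of 0.1 that had been set for pairing, so pairing is not settled. With the replicate block Six2 passed, at -0.34 with all 8 libraries and -0.33 with numbers 2, 3 and 5, and 3237 and 3201 genes were called.

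Among list counts, falls numbered 2 of the bHLH genes (1 in the text) with upper-quartile scaling, with no filter, with the GC correction and with either block. Falls of the TGF-beta arm (2 in the text) numbered 4 with upper-quartile scaling and with either block and 5 with the GC correction. Falls of the Egr list (0 in the text) numbered 1 with upper-quartile scaling and with the GC correction. The GC correction also gave 1 fall of the ERK arm (2 in the text) and 2 rises of the sine oculis, Eya and Dach list (1 in the text), which had 0 with the filter of 5 CPM. DESeq2 gave 2 falls of the Iroquois and TALE list (4 in the text). Depth limits Eya2 most, at 66 to 119 counts in each library, beside the deleted Scx.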
